A study of Mus musculus with 6 samples.

Results

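Small RNA libraries prepared from mouse serum with 3 commercial kits were examined for 69 mature miRNAs whose miRBase accession lies between MIMAT0004500 and MIMAT0004999. The 69 miRNAs, called the members here, were chosen by accession and by read counts, since each had to reach at least 4 counts in at least 2 of the 6 libraries. Of 788 miRNAs listed in any library, 360 met this count rule, and 117 lay in the accession range. Of these 117, 69 met the rule and 48 did not. The label under which the members were grouped calls them largely minor arms. The accessions are paired with neither names nor sequences in the sources used here, so arm, hairpin, seed and genomic position were not analysed, and members are identified by accession only.

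A miRNA hairpin is cut by the enzymes Drosha and Dicer to a short duplex, and either strand can be loaded into an Argonaute protein. The strand that is loaded more often is called the major or guide arm. The other, called the minor, passenger or star arm, is usually degraded faster and is found at lower levels. In serum, which is free of cells, miRNAs are protected by protein complexes, lipoproteins and vesicles. For sequencing, adaptors are joined to both ends of the small RNAs, which are then reverse transcribed, amplified and selected by size.

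RNA came from serum of healthy 129/SVj mice of both sexes, aged 2 to 9 months. The serum was taken from individual animals. The NEBNext Multiplex kit (New England Biolabs), the TruSeq kit v2 (Illumina) and the TailorMix kit v2 (Seqmatic) were each used for 2 libraries, selected for fragments of 125 to 153 bp. The titles number the serum 1 and 2 in each kit, and they do not say whether a number stands for the same mouse in all kits. The p-values therefore measure the spread between these libraries, which may be technical. Reads assigned to miRNAs numbered between 165139 and 351758 per library, and 3 counts, the most that a count of 0 allows, corresponded to 0.000853% to 0.00182% of them. These limits and the intervals given here cover counting error only, as the reads carry no molecular identifiers. The 2 libraries of a kit differed over all miRNAs by more than counting noise (chi-square per degree of freedom 2.16 for NEBNext, 15 for TruSeq and 1.59 for TailorMix), and were counted as separate samples. Over the members, with the remaining miRNA reads as 1 further row, the ratio was 1.32, 1.06 and 1.01. Most members had few counts, so these ratios do not show that members repeated better than other miRNAs. Of 12 blood and tissue marker miRNAs listed by name, only miR-16-5p, which is abundant in red blood cells, could be paired with an accession, and it had 617 to 11322 counts per library.

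The members were scarce as a group, and a single miRNA held most of their pooled reads. Over the 6 libraries they had 29062 reads, or 2.06% of all miRNA reads, although they made up 69 of the 360 miRNAs that met the count rule. The median member had 51 reads in total, against 172 for the 291 other miRNAs. Totals ranged from 9 to 18777 reads, with 34 members under 50 reads and 5 members at 1000 reads or more. MIMAT0004825 had 18777 reads, 64.6% of the members' total, and the 5 most abundant members together had 83.1%. These pooled values are weighted towards TruSeq, where MIMAT0004825 made up 84.4% and 85.2% of the members' reads and the top 5 of each library 94.5% and 94.6%. In the 4 other libraries it made up 25.2% to 38.5% and the top 5 made up 66.4% to 74.3%. In single libraries the median member had 3 to 12 counts and the median of the other miRNAs 10 to 27 counts, so that most members lay close to the limit of counting.

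The share of miRNA reads that fell on the members depended on the kit. It was 2.82% and 2.94% for TruSeq, 1.51% and 1.52% for NEBNext and 1.25% and 1.29% for TailorMix. Counting error was small beside these differences, as the 95% Wilson interval was 1.46% to 1.56% for NEBNext library 1 and 2.77% to 2.88% for TruSeq library 1. Means were 1.51% ± 0.00849 for NEBNext, 2.88% ± 0.0841 for TruSeq and 1.27% ± 0.0283 for TailorMix (SD, n = 2 each). Both TruSeq libraries lay above both NEBNext libraries, and these above both TailorMix libraries. The p was 0.0667, the smallest this design allows (two-sided exact permutation test over the 15 groupings of 6 libraries into pairs). The members were chosen by counts in these same libraries, which limits this test. Over every listed miRNA of the accession range, with no count rule, mean shares were 1.53% for NEBNext, 2.89% for TruSeq and 1.28% for TailorMix.

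The excess in TruSeq rested on MIMAT0004825. This miRNA had 877 and 633 counts from NEBNext, 8372 and 7070 from TruSeq and 850 and 975 from TailorMix. It took 0.387% ± 0.00474, 2.44% ± 0.0894 and 0.467% ± 0.0395 of miRNA reads in the 3 kits (SD, n = 2 each), and ranked 10 and 11 among all miRNAs of the TruSeq libraries, 48 and 51 with NEBNext and 32 and 33 with TailorMix. Without it the order of the kits changed. The remaining 68 members took 1.13% ± 0.0134 of miRNA reads with NEBNext, 0.798% ± 0.011 with TailorMix and 0.438% ± 0.00488 with TruSeq (SD, n = 2 each). TruSeq was then the lowest kit in place of the highest (exact permutation test, p = 0.0667, the smallest possible). MIMAT0004825 was left out because it was the most abundant member in these same libraries, above all with TruSeq, which limits this p. Some of these 68 met the count rule through a single kit, and the part of that rule in this order and p was not tested.

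**Figure D1:**
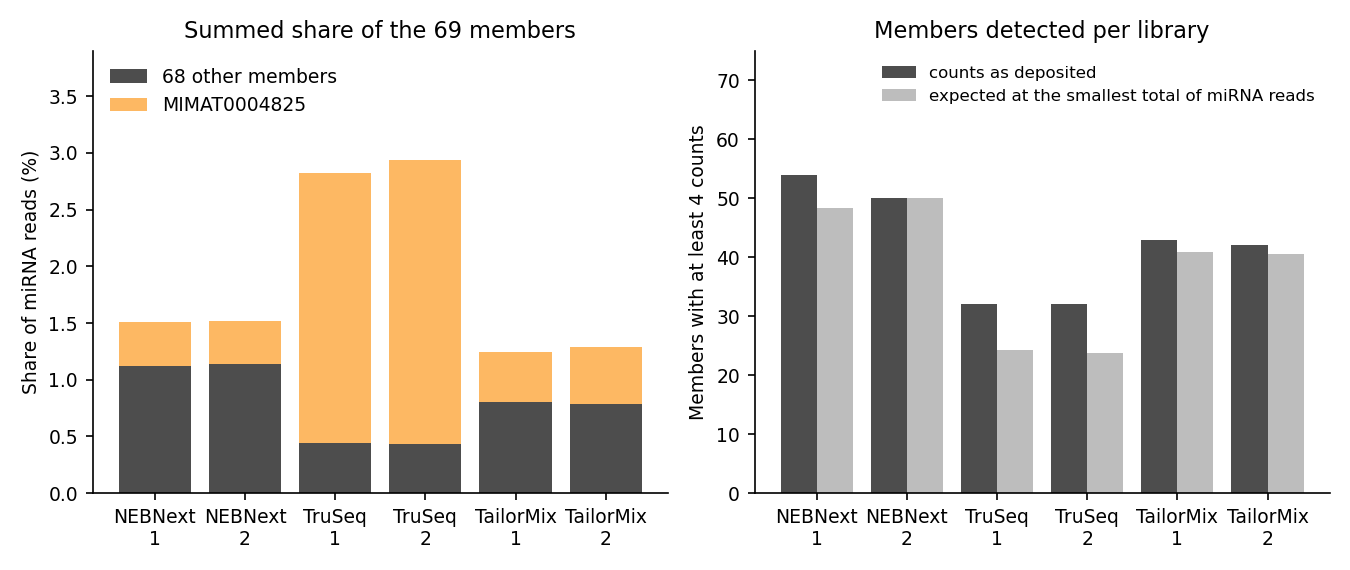
Left, share of miRNA reads (%) that fell on MIMAT0004825 and on the 68 other members, as stacked bars for each of the 6 libraries. Right, number of members with at least 4 counts in each library, from the deposited counts and as computed for libraries thinned to 165139 miRNA reads. The TruSeq bars are highest on the left, at 2.82% and 2.94%, and lowest on the right, at 32 members.

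The number of members detected also differed between the kits. As detection was part of the rule that chose the members, these numbers are a description without a test. At least 4 counts were reached by 54 and 50 members for NEBNext, 32 in each library for TruSeq and 43 and 42 for TailorMix. TruSeq thus showed the fewest members although its libraries had the most miRNA reads. If every library were thinned to 165139 miRNA reads, the smallest total, 24.3 and 23.7 members would be expected for TruSeq, 48.4 and 50 for NEBNext and 40.8 and 40.5 for TailorMix. Of the other 291 miRNAs, 81.8% and 75.3% reached 4 counts for NEBNext, 70.4% and 64.9% for TruSeq and 77.3% and 75.6% for TailorMix. The corresponding shares of the 69 members were 78.3% and 72.5%, 46.4% and 46.4%, and 62.3% and 60.9%.

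Few members reached 4 counts in every library. At least 4 counts in all 6 libraries were present for 12 of 69 members (17.4%) and for 134 of the 291 other miRNAs (46.0%). At any count above 0, all 6 libraries listed 32 members (46.4%) and 176 of the other miRNAs (60.5%). The members also had fewer reads, and the part of this in the gap was not tested. Reads in a single kit only, at the minimum of 4 counts, were present for 19 members, of which 10 were in NEBNext, 7 in TailorMix and 2 in TruSeq. These were 14.5%, 10.1% and 2.9% of the members, against 7.9%, 8.59% and 2.06% of the other miRNAs. A further 32 members reached 4 counts with 2 kits and 18 with all 3 kits. Detection with 1, 2 and 3 kits thus held for 27.5%, 46.4% and 26.1% of the members, and for 18.6%, 27.1% and 54.3% of the other miRNAs. Both TruSeq libraries were at 0 for 17 members, both TailorMix libraries for 7 and both NEBNext libraries for 4 (24.6%, 10.1% and 5.8%, against 14.4%, 6.53% and 3.09% of the other miRNAs). The highest mean share was found with NEBNext for 36 members (52.2%, against 45.7% of the other miRNAs), with TailorMix for 24 (34.8%, against 36.8%) and with TruSeq for 9 (13%, against 17.5%). The lowest was found with TruSeq for 39 members (56.5%, against 47.4%).

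**Figure D2:**
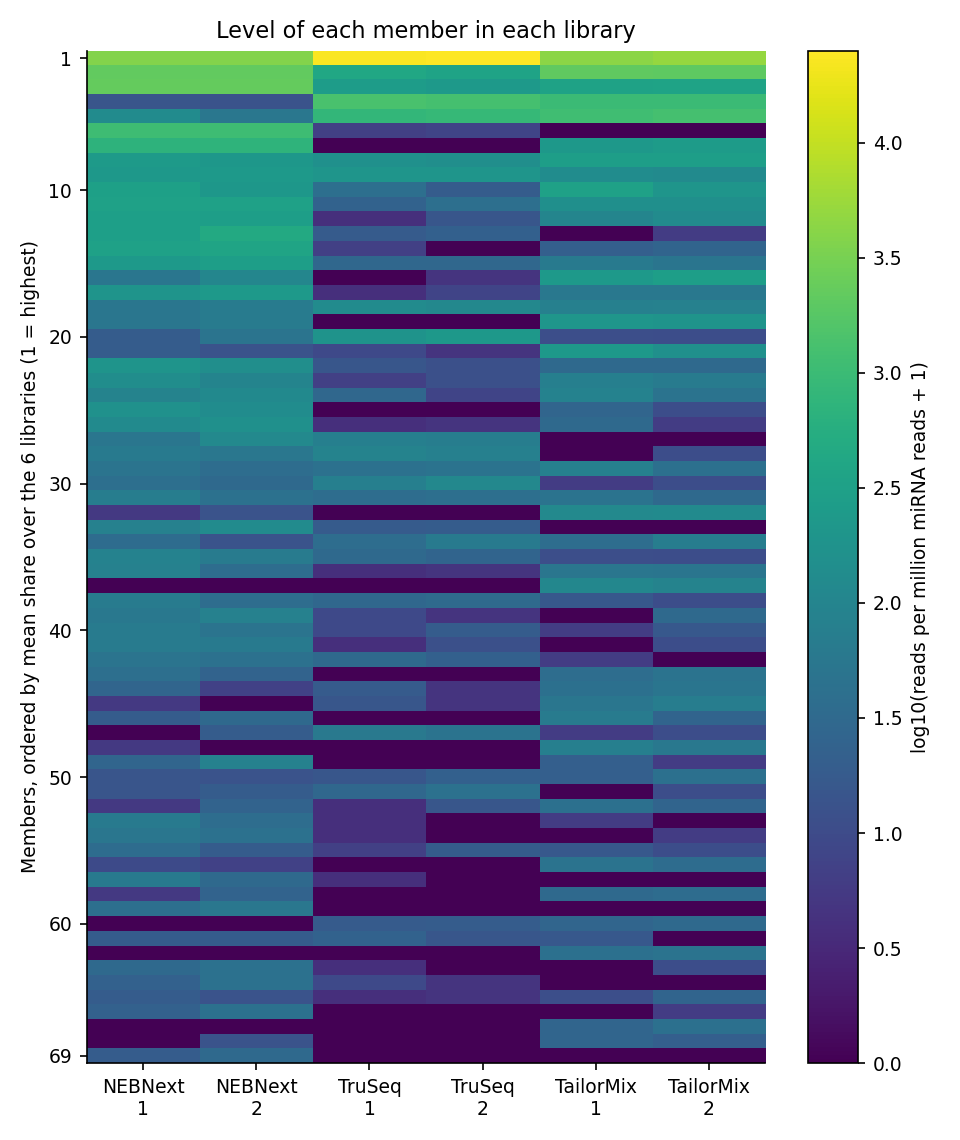
Level of each of the 69 members (rows, ordered by mean share over the 6 libraries) in each library (columns), as the log10 of RPM plus 1 (RPM, counts scaled to the miRNA reads of the library). The columns of a kit resemble each other, and the 2 TruSeq columns hold the most rows at 0, with 18 and 22 members unlisted.

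Several of the most abundant members were close to undetected with one kit and abundant with another. These 4 examples fall under the fixed rules for abundance or for detection in a single kit. All 4 met the count rule only through the kits where they were high, so their fold differences are a description without a test. MIMAT0004534 had 242 and 175 counts from NEBNext, 2 and 2 from TruSeq and 0 in both TailorMix libraries. Its level was at least 139-fold higher with NEBNext than with TailorMix, when 3 counts over both TailorMix libraries are taken as the limit of a count of 0. The NEBNext libraries stood far above the 4 others. MIMAT0004750 had 155 and 122 counts with NEBNext, 42 and 50 with TailorMix and 0 in both TruSeq libraries. Its level was at least 150-fold higher with NEBNext and at least 49.8-fold higher with TailorMix than with TruSeq, by the same limit. The 3 kits did not overlap.

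MIMAT0004536 had the reverse pattern, with 3 and 2 counts from NEBNext, 475 and 360 from TruSeq and 189 and 195 from TailorMix. Its mean share of miRNA reads was 0.131% ± 0.00524 for TruSeq, 0.0984% ± 0.000952 for TailorMix and 0.00127% ± 8.7e-05 for NEBNext (SD, n = 2 each), given without a test because it met the count rule through TruSeq and TailorMix alone. MIMAT0004523 was found with TailorMix only, at 21 and 18 counts, and was at 0 in the 4 other libraries. It was at least 13.0-fold higher with TailorMix than with NEBNext and at least 21.1-fold higher than with TruSeq. In all, 2 members had at least 4 counts in both NEBNext libraries and 0 elsewhere, 3 members had this pattern with TailorMix and 0 with TruSeq. Of the 291 other miRNAs, 3, 6 and 1 had it.

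**Figure D3:**
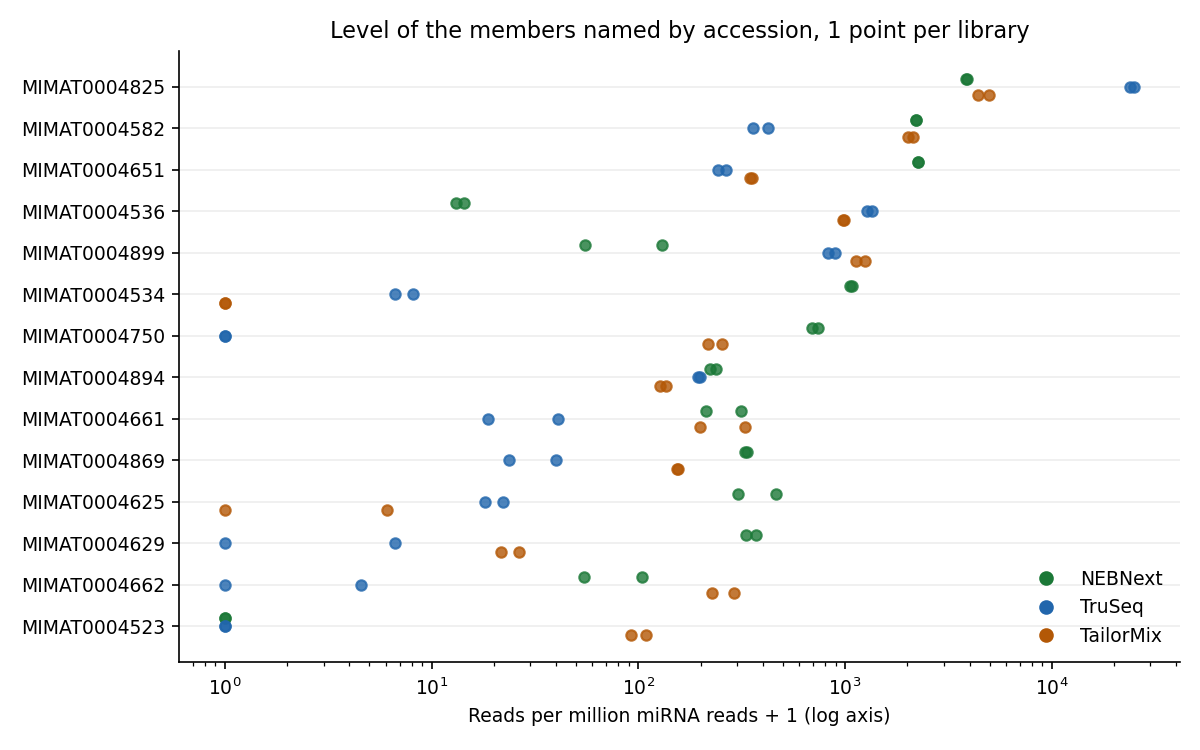
Level of the 14 members named by accession in each library, as RPM plus 1 on a log axis, with 1 point per library coloured by kit. At least 1 kit lies apart from the others for most of these members, as for MIMAT0004536, with 3 and 2 counts in the NEBNext libraries and 189 to 475 counts in the 4 others. Most of the 14 were picked for large called changes and kits that do not overlap, so this separation follows from the choice.

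Libraries of the same kit ranked the members much more alike than libraries of different kits. Spearman's rho across the 69 members was 0.910 between the 2 NEBNext libraries, 0.933 for TruSeq and 0.916 for TailorMix. Between kits it was 0.29 to 0.36 for NEBNext with TruSeq, 0.162 to 0.241 for TruSeq with TailorMix and 0.0994 to 0.211 for NEBNext with TailorMix. For the 291 other miRNAs rho was 0.97 to 0.98 within kits and 0.601 to 0.676 between kits. These values describe miRNAs that share libraries and are not independent, and no p was computed. The count rule also keeps scarce miRNAs that are high in 1 kit, and its part in these values was not tested. Over the 18 members with a mean of at least 20 counts, chosen after seeing the data, rho was 0.947 to 0.985 within kits and -0.122 to 0.62 between kits. Over the 156 other miRNAs with that mean, rho between kits was 0.485 to 0.589, a range that overlaps that of the members.

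**Figure D4:**
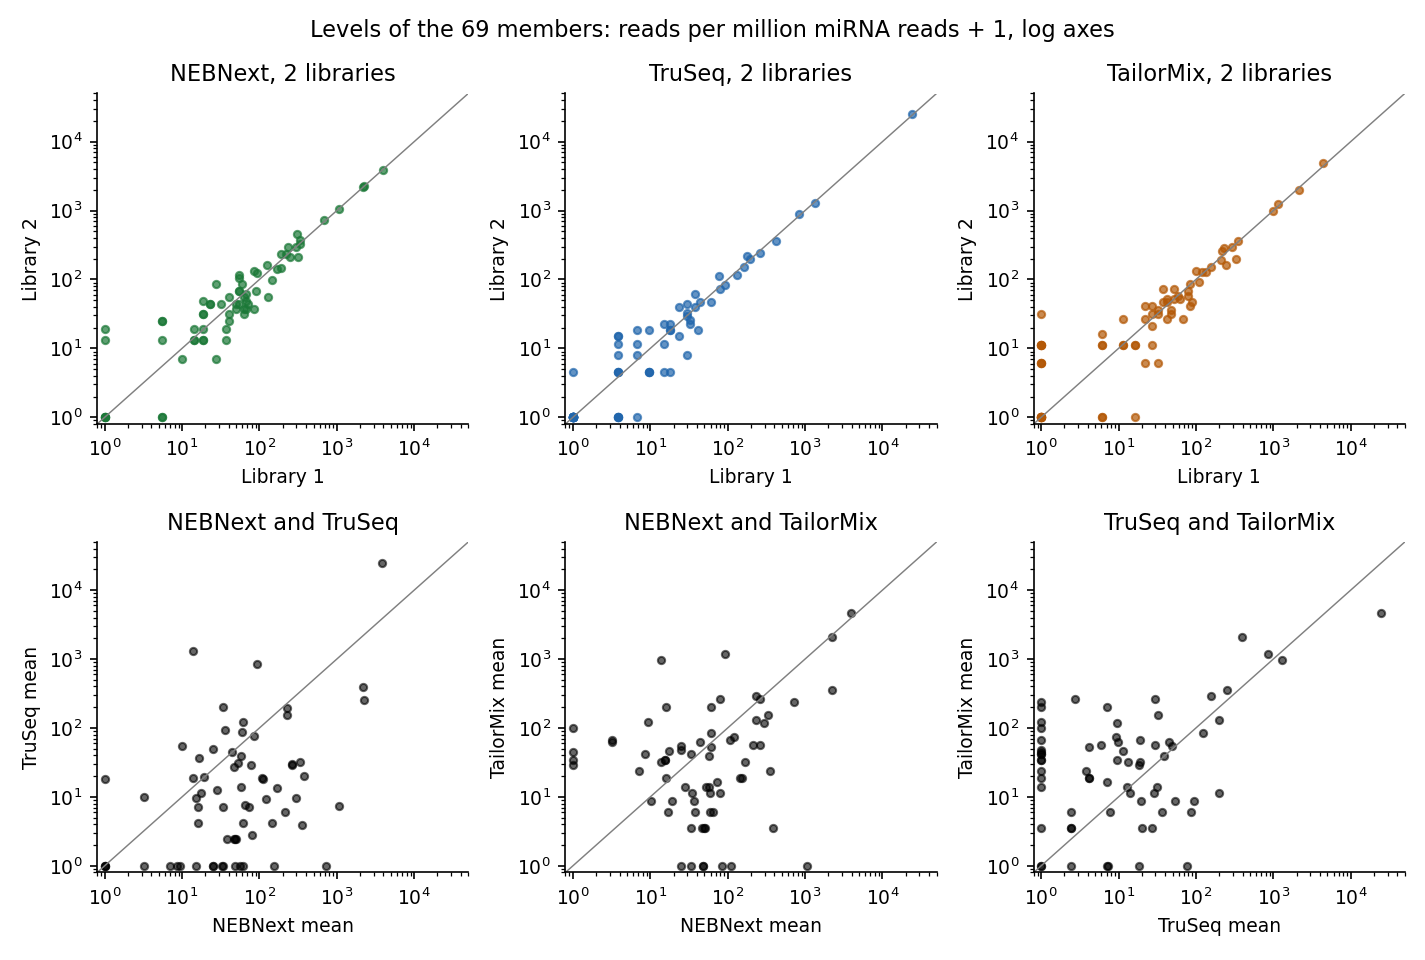
Levels of the 69 members, as RPM plus 1 on log axes, with the line of equal values. The top row plots library 2 against library 1 of each kit (Spearman's rho 0.91 to 0.933) and the bottom row the mean of a kit against that of another (rho between single libraries 0.0994 to 0.36).

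The 10 most abundant members of each kit overlapped in part. The NEBNext list shared 3 of 10 members with the TruSeq list and 5 of 10 with the TailorMix list, the TruSeq and TailorMix lists shared 6 of 10, and 3 members were in all of them. The 2 libraries of each kit shared 9 of 10. Among the 32 members listed in all 6 libraries, the kit with the highest mean share exceeded that with the lowest by a median of 6.95-fold, with a range of 1.45-fold to 103-fold. The difference was at least 2-fold for 28 of these members, at least 4-fold for 23 and at least 10-fold for 12. The 176 other miRNAs listed in all libraries had a median of 9.11-fold, and 164, 126 and 82 of them reached these limits. For all 13 members listed in all 6 libraries with a mean of at least 20 counts, the log2 range of the kit means exceeded the largest log2 gap between the 2 libraries of a kit, as it did for 134 of the 137 other miRNAs of this kind.

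Counts were then compared between kits across all 360 miRNAs with edgeR's quasi-likelihood test, after TMM normalization (trimmed mean of M values, a scaling that takes most miRNAs as unchanged), and a miRNA was called at a Benjamini-Hochberg adjusted p under 0.05. The 3 contrasts share libraries and are therefore given side by side. A member with 4 counts in a single kit only had to differ from the other kits, so counts are also given for miRNAs with at least 4 counts in all 4 libraries of a contrast.

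From NEBNext to TruSeq, 45 of 69 members were called. Of these, 13 were higher with TruSeq, where 26.1% of all 360 miRNAs were, and 32 were lower, where 42.5% of all were, so that 65.2% of members and 68.6% of all miRNAs were called. The median log2 fold change was -1.52 for the members and -0.53 for all miRNAs. Of the 21 members with at least 4 counts in all 4 libraries, 15 were called (71.4%, against 77.3% of all miRNAs of this kind). These 15 calls were 8 higher and 7 lower with TruSeq, so the lean to lower levels was not seen among them. Of all miRNAs of this kind, 64 were called higher and 69 lower. With totals of miRNA reads in place of TMM, 8 members were higher and 38 lower, or 17.4% of the calls higher in place of 28.9%. Of all 360 miRNAs, 61 were higher and 191 lower on these totals. DESeq2 called 27 members and 175 of all 360 miRNAs.

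Among called members with at least 4 counts in all 4 libraries and no overlap between the kits, the 2 with the largest rise and the 2 with the largest fall are given in each contrast. MIMAT0004899 rose from 29 and 9 counts with NEBNext to 292 and 251 with TruSeq, a log2 fold change of 4.21 (standard error 0.23, adjusted p = 1.97e-17). Without NEBNext replicate 1 or 2 it was 4.91 and 3.715. MIMAT0004825, the most abundant member, rose by 3.73 (standard error 0.11, adjusted p = 3.68e-25), or 13.2-fold. MIMAT0004625 fell from 68 and 76 counts to 6 and 6 counts, a log2 fold change of -3.21 (standard error 0.40, adjusted p = 9.2e-09). MIMAT0004869 fell from 75 and 54 to 8 and 11 counts, a log2 fold change of -2.38 (standard error 0.34, adjusted p = 1.82e-07). On totals of miRNA reads these values were 3.14, 2.66, -4.27 and -3.44, in the same order.

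From NEBNext to TailorMix, 51 of 69 members were called, nearly balanced in direction. The 26 members that were higher with TailorMix compare with 39.2% of all miRNAs, and the 25 that were lower with 38.3%. In total 73.9% of members and 77.5% of all miRNAs were called, and the median log2 fold change was -0.45 for the members and -0.24 for all. With at least 4 counts in all 4 libraries, 17 of 24 members were called (70.8%, against 83.3%). These were 10 higher and 7 lower with TailorMix, against 78 and 77 of all miRNAs of this kind. On totals of miRNA reads 14 members were higher and 32 lower, or 30.4% of the calls higher in place of 51%. Of all 360 miRNAs, 108 were higher and 172 lower on these totals. DESeq2 called 26 members and 200 of all 360 miRNAs.

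MIMAT0004899 rose in this contrast too, to 219 and 245 counts with TailorMix, with a log2 fold change of 4.26 (standard error 0.24, adjusted p = 2.16e-17). Without NEBNext replicate 1 or 2 it was 4.86 and 3.67. MIMAT0004662 rose from 12 and 17 to 44 and 57 counts, by 2.43 (standard error 0.34, adjusted p = 1.43e-07), and by 1.76 without NEBNext replicate 1. It had 0 and 1 count with TruSeq. MIMAT0004629 fell from 74 and 61 counts to 4 and 5, with a log2 fold change of -3.23 (standard error 0.42, adjusted p = 3.23e-08). MIMAT0004651, among the most abundant members, fell from 508 and 371 to 67 and 70 counts, with a log2 fold change of -2.03 (standard error 0.17, adjusted p = 1.12e-12). It had 93 and 68 counts with TruSeq, and its level there did not pass the test against TailorMix (log2 fold change 0.05, standard error 0.20, adjusted p = 0.835). On totals of miRNA reads the changes from NEBNext of MIMAT0004899, MIMAT0004662, MIMAT0004629 and MIMAT0004651 were 3.61, 1.78, -3.88 and -2.68.

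From TruSeq to TailorMix, 42 of 69 members were called. Of these, 27 were higher with TailorMix, against 41.7% of all miRNAs, and 15 were lower, against 28.9%. In total 60.9% of members and 70.6% of all miRNAs were called, and the median log2 fold change was 0.56 for the members and 0.50 for all. With at least 4 counts in all 4 libraries, 7 of 16 members were called (43.8%, against 78.4% of all miRNAs). These were 3 higher and 4 lower with TailorMix, against 64 and 67 of all miRNAs of this kind. The lean to higher levels was thus not seen among them. The median of the mean counts was 29 for these 16 members and 181 for the 151 other miRNAs of this kind. The part of this depth in the lower share of calls was not tested. On totals of miRNA reads 33 members were higher and 12 lower, against 175 and 89 of all 360 miRNAs. DESeq2 called 30 members and 204 of all 360 miRNAs.

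MIMAT0004661 rose from 14 and 5 counts with TruSeq to 63 and 39 with TailorMix, by 2.69 on the log2 scale (standard error 0.39, adjusted p = 2.21e-07). Without TruSeq replicate 1 or 2 the rise was 3.49 and 2.24. MIMAT0004582, second by mean share, rose from 148 and 101 to 412 and 396 counts, with a log2 fold change of 1.98 (standard error 0.15, adjusted p = 2.17e-13). It had 496 and 365 counts with NEBNext. MIMAT0004825 fell by 2.80 (standard error 0.11, adjusted p = 3.55e-22). MIMAT0004894 fell from 68 and 56 to 26 and 25 counts, with a log2 fold change of -0.999 (standard error 0.27, adjusted p = 0.00131). With totals of miRNA reads, these changes were 3.11, 2.40, -2.39 and -0.581, in the same order. For MIMAT0004894 the adjusted p was then 0.0489 in the edgeR test, and it was 0.035 in the DESeq2 Wald test.

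The scaling set the size of these changes and, for some members, the direction. With TMM, 68.6% to 77.5% of all 360 miRNAs were called in a contrast, so its premise of mostly unchanged miRNAs was not met by these calls. The TMM factors were 1.47 and 1.51 for NEBNext, 0.685 and 0.735 for TruSeq and 0.947 and 0.946 for TailorMix. Which scaling lies closer to the true levels was not tested. The median log2 fold change of all 360 miRNAs moved from -0.53 with TMM to -1.48 on totals of miRNA reads for TruSeq against NEBNext, from -0.24 to -0.89 for TailorMix against NEBNext, and from 0.50 to 0.91 for TailorMix against TruSeq. Relative to this median the members' median was -0.99 and -1.07, -0.22 and -0.22, and 0.06 and 0.07 with the 2 scalings. Of the called members, 2 changed sign on totals of miRNA reads in each of the contrasts with NEBNext and none from TruSeq to TailorMix. For MIMAT0004894, for example, TMM gave a log2 difference of 0.84 for TruSeq against NEBNext (standard error 0.24, adjusted p = 0.00229), while its mean share of miRNA reads was 0.0229% ± 0.000976 with NEBNext and 0.0196% ± 0.000369 with TruSeq (SD, n = 2 each).

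Over the 3 contrasts, 17 members were called in all of them, 39 in 2, 9 in 1 and 4 in none, and 138, 170, 26 and 26 of all 360 miRNAs. The members closest to the count rule had few reads in any kit. The 4 members just inside the rule had a second-highest count of 4 and a highest count of 5 to 8, and the 4 range miRNAs just outside it had a second-highest count of 3 and a highest count of 5 to 9. The 48 range miRNAs that did not meet the rule had 213 reads in total and at most 9 in a library. Of these, 15 were listed in 1 library only, 8 of them with 1 read.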

How the data were processed

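The authors deposited raw read counts for each library, listed per miRBase accession and, for other small RNAs, per distinct sequence. Adaptors had been removed with Cutadapt 1.8.1 and short or low-quality reads dropped. Reads were then placed on GRCm38 with Bowtie 1.1.2, allowing no mismatch, and assigned to miRBase miRNAs by position. A miRNA not listed for a library was taken as 0.

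Shares were computed of miRNA reads with Python 3.11.15, pandas 2.3.3 and scipy 1.17.1. Kits were compared by exact permutation tests, and across all miRNAs with edgeR 4.0.16 (R 4.3.3) using TMM, 6 libraries and no replicate block. Standard errors were derived from the quasi-likelihood F statistic. Tests were checked on simulated counts. DESeq2 1.42.0, other scalings and filters, and single libraries left out were alternatives. No correction was made for adaptor or ligation effects.

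Members and lists were chosen with earlier results of these data known. Named members follow fixed rules (mean share, detection in a single kit, largest called changes with at least 4 counts in all 4 libraries and kits that do not overlap), limited to 2 accessions per direction and comparison, as names could not be matched.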

Additional observations from a re-analysis of the deposited data

How the results depend on the processing

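The numbers of called members were moved most by the filter and by the tool. With DESeq2, the calls were 27 (8 higher, 19 lower) for TruSeq against NEBNext and 26 (15 higher, 11 lower) for TailorMix against NEBNext. For TailorMix against TruSeq they were 30, with 9 lower. Of all 360 miRNAs, DESeq2 called 175, 200 and 204 in these contrasts. With at least 4 counts in all 6 libraries required, only 12 members were tested. Of these, 9 (4 higher, 5 lower), 9 (7 higher, 2 lower) and 8 (5 higher, 3 lower) were called in the 3 contrasts. Of all 146 miRNAs tested with that filter, 115, 121 and 122 were called. On totals of miRNA reads, 8 members were higher for TruSeq against NEBNext and 14 for TailorMix against NEBNext. Of all 360 miRNAs, 61 and 108 were higher. Without a filter 15 members were higher for TailorMix against NEBNext, where 40 members and 253 of all 788 miRNAs were called in either direction. The cause of the changes with DESeq2, with the filter on all 6 libraries and without a filter was not tested. Leaving out single libraries gave 36 to 46, 38 to 51 and 34 to 41 calls in the 3 contrasts, and 17 to 25 higher for TailorMix against NEBNext. With the replicate block, 42, 42 and 38 members were called, and all of these calls were also made without it. Of all 360 miRNAs, 232, 250 and 235 were called with the block. The same number need not mark the same mouse, and the deviations of same-numbered libraries correlated by 0.0289, -0.0334 and -0.00343 over 174 miRNAs (0.255, 0.288 and 0.187 over 18 members), so the numbers were not taken as pairs.

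Of annotated reads, the members made up 0.0139% (NEBNext), 0.0868% (TruSeq) and 0.0473% (TailorMix). Without MIMAT0004825 their share of miRNA reads was 1.13%, 0.438% and 0.798%, and for members with 4 counts in all 6 libraries 0.989%, 2.66% and 0.936%. Every range miRNA together took 1.53% with NEBNext. The members detected averaged 63, 49 and 56.5 at a minimum of 1 count, 33, 20.5 and 25.5 at 10 counts, and 24 with TruSeq and 40.7 with TailorMix after thinning. The log2 fold changes of the 12 named contrasts kept their direction under all alternatives that gave a value for them. They stayed called in those with both libraries of each kit. They were picked as the largest called changes in these data, so this does not extend to the other calls. Of the 45, 51 and 42 member calls, DESeq2 kept 27, 26 and 30, and totals of miRNA reads kept 40, 39 and 39. The planned comparison of the members with their sister arms was not run, because accessions were not paired with names. Counts of 3 to 12 for the median member limit what single libraries can show.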
